A study of Caenorhabditis elegans with 2 samples.

Results

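Mediator and TFIID are the multi-subunit complexes through which sequence-specific transcription factors reach RNA polymerase II. NHR-25, a nuclear hormone receptor of the SF-1/FTZ-F1 family, was mapped by ChIP-seq in whole L3 larvae of Caenorhabditis elegans, and its peaks near the genes of both complexes are described here. The set holds 41 of 19973 nuclear protein-coding genes: 24 Mediator genes and 17 TFIID genes. The genes were chosen by name, as every gene called mdt- or taf- in the Ensembl annotation together with dpy-22, let-19, cdk-8 and cic-1. Their binding sites were selected on peak height, because a summit counted only if it stood in the list kept by an irreproducible discovery rate (IDR) step, which retains reproducible peaks. A summit is the highest point of a peak. It was assigned to a gene if it lay inside the gene or in its promoter window, which reached 2000 bp upstream and 200 bp downstream of the annotated 5′ end.

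The study had a single group. Its animals were L3 larvae, labelled as pooled male and female, of strain OP33, which carries the unc-119(ed3) III mutation and the wgIs33 insertion. That insertion expresses NHR-25 with GFP and FLAG fused to its C terminus. The 2 samples were labelled as biological replicates 1 and 2. The chromatin came from whole animals, so a peak cannot be given to a tissue, and no untreated or control sample was analysed here. Chromatin was fragmented by sonication. The IDR list held 5017 peaks, which were the highest of the 30000 pooled regions, with heights of 42.2 and above. Heights are the authors' signal values per peak in arbitrary units, used here to rank and describe peaks. Read totals were not used here and depth is unknown.

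Mediator is divided into a head, which contacts RNA polymerase II, a middle, a tail, which receives many activators, and a kinase module of CDK8, cyclin C, MED12 and MED13 that can come and go. TFIID consists of the TATA-binding protein and its associated factors (TAFs), and recognises core promoters. Many TAFs pair with each other through histone folds. In the worm, the tail subunit MDT-15 is known for its work with nuclear receptors and SBP-1 in fat metabolism, and the kinase module subunits DPY-22 and LET-19 for roles in Wnt and vulval signalling.

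NHR-25 summits stood in the promoter windows of 18 of the 41 subunit genes (43.9%, exact binomial 95% interval 28.5 to 60.3%, which covers counting of genes only). Of all nuclear protein-coding genes, 18.4% had such a summit. With summits anywhere in the gene added, 21 of the 41 genes carried one (51.2%), beside 21.5% of all genes. Replicate 1 alone, limited to its 5017 highest regions, marked 17 subunit genes (41.5%) where it marked 18% of all genes (3598 of 19973). Replicate 2 alone marked 18 subunit genes (43.9%) where it marked 17.8% of all genes. In both replicates 16 subunit genes were marked (39.0%), and the share of all genes marked in both is not given here. The genes were picked with results of these data known, so these shares are a description and were given no test. For the same reason the interval does not serve as a test against the share of all genes. Of 38 other genes of the transcription machinery, 12 had a promoter summit (31.6%), but this share pools unlike groups. It was 60% of 5 Mediator genes under other names and 58.3% of 12 RNA polymerase II genes, both above the subunit genes. It was 12.5% of 16 general factor genes and 0% of the TBP family and P-TEFb genes. Mediator and TFIID had similar shares, with promoter summits at 10 of 24 Mediator genes (41.7%) and at 8 of 17 TFIID genes (47.1%).

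**Figure D1:**
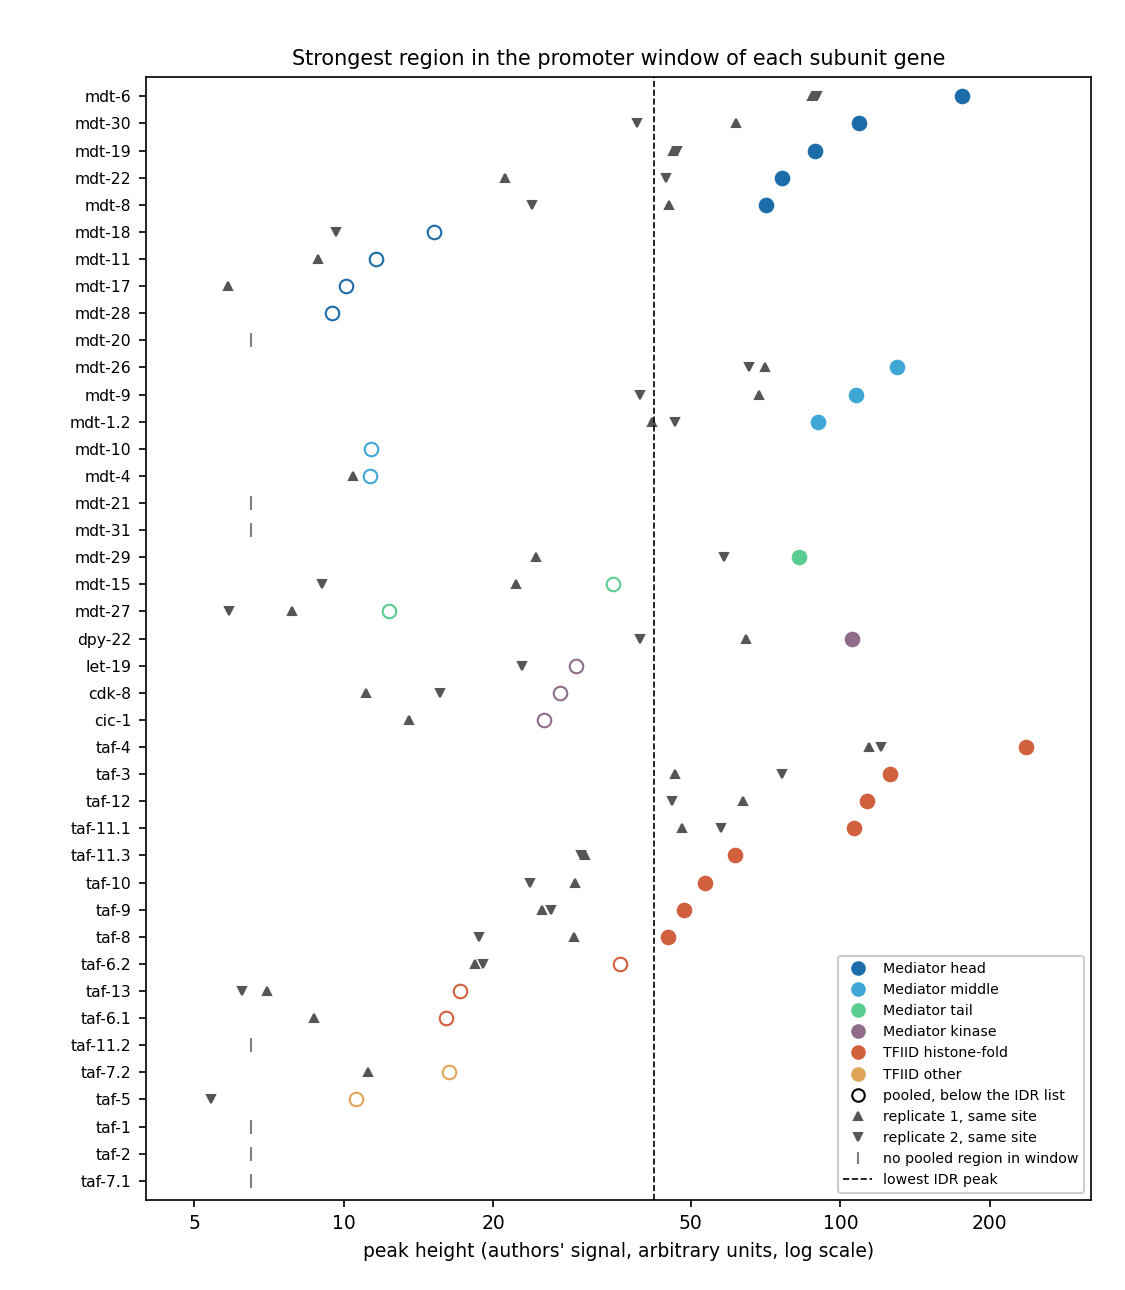
Peak height of the strongest pooled region in the promoter window of each of the 41 genes (log scale, authors' signal in arbitrary units), with the heights of both replicates within 100 bp of the same summit as triangles. The 18 filled points lie right of the dashed line at 42.2, the lowest IDR peak, the 16 open points lie between 9.44 and 35.9, and 7 genes had no pooled region in the window.

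Over both complexes, the 20 promoter summits of the subunit genes were of ordinary to somewhat high rank. Their heights ran from 45.0 to 235.9 with a median of 89.4. The median was 79.3 over all 4156 pairs of a gene and a promoter summit in the series. It was higher, at 90.1, over the 11 summits of Mediator genes and lower, at 61.3, over the 9 of TFIID genes. TFIID genes held both the lowest and the highest of the 20 summits, and the contrast between the complexes was not tested. Of the 20, 13 (65.0%) were among the 2508 strongest IDR peaks and 2 (10%) were among the 500 strongest of the 5017. Promoter summits of all genes stood among the 2508 strongest in 52.4% of cases. The summits lay at a median of 405.5 bp upstream of the subunit gene, close to the 393 bp of all such pairs. Of the 20, 10 (50%) lay within 500 bp upstream, beside 49.8% of all such pairs, 9 lay farther upstream and 1 lay just inside the gene. All but 3 of the 20 fell in intergenic sequence.

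Shown are 4 summit windows without annotated exons of protein-coding genes, so that the letters stand for upstream sequence. They belong to mdt-1.2 of the middle, mdt-29 of the tail, dpy-22 of the kinase module and taf-3 of TFIID. The mdt-29 window is also the only one of the 20 that holds the core of the half-site known for this receptor family. Each runs 100 bp to either side of the summit on ce11, 5′ to 3′ in the direction of the subunit gene, and was read from the RefSeq copy of the same assembly. Capitals mark a match on either strand to the half-site core, CAAGGNC, and a line without capitals holds none.
mdt-1.2, chrX:17151231-17151431, plus strand: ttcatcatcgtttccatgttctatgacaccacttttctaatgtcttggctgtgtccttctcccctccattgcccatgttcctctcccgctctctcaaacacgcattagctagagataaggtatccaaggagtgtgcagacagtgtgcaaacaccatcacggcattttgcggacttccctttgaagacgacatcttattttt
mdt-29, chrIII:13771260-13771460, plus strand: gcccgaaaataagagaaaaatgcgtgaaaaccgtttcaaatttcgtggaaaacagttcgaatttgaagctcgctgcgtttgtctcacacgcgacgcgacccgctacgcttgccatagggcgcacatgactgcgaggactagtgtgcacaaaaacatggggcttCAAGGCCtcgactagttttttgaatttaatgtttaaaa
dpy-22, chrX:9822644-9822844, minus strand: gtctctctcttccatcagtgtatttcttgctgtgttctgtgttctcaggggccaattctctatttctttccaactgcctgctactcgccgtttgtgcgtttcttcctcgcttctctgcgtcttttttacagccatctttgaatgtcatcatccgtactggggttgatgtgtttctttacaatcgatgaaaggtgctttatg
taf-3, chrX:16331995-16332195, plus strand: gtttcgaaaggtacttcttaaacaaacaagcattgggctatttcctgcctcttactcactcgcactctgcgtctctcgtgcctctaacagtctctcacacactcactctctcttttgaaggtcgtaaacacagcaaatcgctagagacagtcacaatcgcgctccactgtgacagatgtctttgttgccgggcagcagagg

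Of the motifs searched, the half-site core CAAGGNC was present within 100 bp of 1 of the 20 summits (5%), that of mdt-29, with its centre 66 bp from the summit. The same letters were present at 10.1% of all 2870 promoter summits of the IDR list and in 2.62% of equally wide windows directly upstream of all genes. Both strands were searched for every motif. The full element TCAAGGTCA, which contains that core, was at none of the 20, at 0.801% of all promoter summits and in 0.125% of the upstream windows. TGATAA, a form of the core of sites for GATA factors, was at 2 of the 20 (10%), in the windows of taf-9 and of the distal taf-11.3 summit. It was at 12.997% of promoter summits and in 22.8% of upstream windows. Other forms of that core were not searched. The GC-rich string CCGCCC was at 1 (5%), the taf-10 summit, 1 bp from its highest point, beside 9.44% of promoter summits and 6.01% of upstream windows. A match is a string of letters and not a shown binding site. The 20 windows had a median GC content of 44.8% (31.3 to 54.7%), all promoter summits one of 41.8% and the windows upstream of all genes one of 32.8%.

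In the head of Mediator, 5 of 10 genes had a promoter summit. mdt-6, encoding the conserved MED6 subunit, had the highest of Mediator's promoter peaks at 175.4, on chrV:7060498-7060596. Its heights were 87.6 in replicate 1 and 89.7 in replicate 2, so the replicates differed little. The summit lay 945 bp upstream of mdt-6 but in the 5′ UTR of Y57E12AL.1, 39 bp past that gene's 5′ end, and 99 bp upstream of Y57E12AL.6. mdt-30 had a peak of 109.2 (61.7 and 38.9 in replicates 1 and 2) that lay 1622 bp upstream of it and 15 bp upstream of F44B9.8. mdt-19 had one of 88.8 (46.0 and 46.9), 814 bp upstream of it and 205 bp upstream of apb-1, a beta-adaptin gene. These 3 peaks were all nearer to the 5′ end of a neighbour than to that of the Mediator gene.

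mdt-22 stood closer to its peak. The summit of height 76.1 lay 57 bp upstream of mdt-22 and in an intron of clpp-1, the gene of a mitochondrial protease. It was 21.1 in replicate 1, where it ranked 5260 and so outside the 5017 highest regions, and 44.5 in replicate 2. mdt-8 had 2 summits, 998 and 1204 bp upstream, with heights of 70.9 and 67.5, and both were nearer to Y62F5A.12, 335 and 541 bp upstream of it. The first was 45.1 in replicate 1 and 23.9 in replicate 2, and the second was 35.2 and 30.1. mdt-18 had none in its window, but a summit of 58.9 (31.8 and 29.9) stood 1270 bp inside the gene, in a 5′ UTR and 136 bp upstream of the first base of another annotated transcript. That site lay 307 bp upstream of uri-1, a prefoldin-like gene. mdt-11, mdt-17, mdt-20 and mdt-28 had no summit. Of these, mdt-17, which encodes the scaffold of the head in yeast and human, had a pooled region of 10.1 and the nearest IDR summit 115980 bp away. mdt-11 and mdt-28 had regions of 11.6 and 9.44, mdt-20 had none, and an IDR summit of height 498.1 lay 2904 bp from mdt-11, beyond its window.

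In the middle, 3 of 7 genes had a promoter summit. mdt-26 had 2 strong sites, which made it the Mediator gene with the highest peak. A peak of 130.1 (70.4 and 65.5) had its summit in coding sequence, 63 bp past the 5′ end. A higher one of 221.3, on chrII:5661791-5662140 in an intron 785 bp into the gene, stood at 70.4 in replicate 1 and 152.0 in replicate 2. The replicates were thus close at the first site and differed by over 2-fold at the second. mdt-9 had a peak of 107.4 (68.7 and 39.6) 116 bp upstream. Its summit was also within the windows of 4 other genes, Y62E10A.23 being nearest at 60 bp and lsm-3, which encodes an RNA-binding Sm-like protein, lying 939 bp away. mdt-1.2, a relative of MED1, had a peak of 90.1 (41.7 and 46.4) 191 bp upstream, and the same summit lay 1404 bp upstream of T23C6.4.

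mdt-4 had no promoter summit, but an intronic one of 71.8 lay 1388 bp into the gene. It was 11.5 in replicate 1, at rank 11301, and 52.2 in replicate 2, at rank 1682, which was the widest gap between replicates among all summits of the set. mdt-10, mdt-21 and mdt-31 had no summit in window or gene. mdt-10 had a pooled region of 11.32, and an IDR summit of height 42.8 lay 2598 bp away. For mdt-21 and mdt-31 the pooled list held no region at all in the window, although IDR summits stood 2929 and 3999 bp upstream.

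Of the 3 tail genes, mdt-29 had a promoter summit and mdt-27 one inside the gene. The mdt-29 peak of 82.6 was 24.3 in replicate 1 and 58.4 in replicate 2, a more than 2-fold difference. It lay 1816 bp upstream, near the edge of the window, and was 136 bp upstream of cyk-4, a regulator of cytokinesis, and 153 bp upstream of pdr-1, the worm parkin gene. The mdt-27 peak of 130.1 (71.1 and 56.0) lay in an intron, 959 bp into the gene and in the promoter window of no gene. mdt-15 had no IDR summit. Its strongest pooled region had a height of 34.8 and rank 6103 and thus fell short of the list, and it lay at the far edge of the window. That site was 22.3 in replicate 1 and 9.03 in replicate 2, and the nearest IDR summit lay 3492 bp upstream of mdt-15.

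In the kinase module, dpy-22 was the only 1 of 4 genes with an IDR summit. dpy-22 encodes the MED12 homologue and is on the X chromosome. Its peak of 105.5, on chrX:9822569-9822918, lay in intergenic sequence 471 bp upstream and in no other promoter window. It was 64.5 in replicate 1 and 39.4 in replicate 2. The other 3 genes each had a weaker region outside the list. let-19, encoding the MED13 homologue, had one of 29.4 at rank 7188, which reached 22.8 and rank 5010 in replicate 2 and had no match within 100 bp in replicate 1. cdk-8 had one of 27.3 at rank 7727, 37 bp upstream (11.07 and 15.6), and cic-1, the cyclin C gene, one of 25.3 at rank 8373, 122 bp upstream (13.5 in replicate 1, no match in replicate 2).

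**Figure D2:**
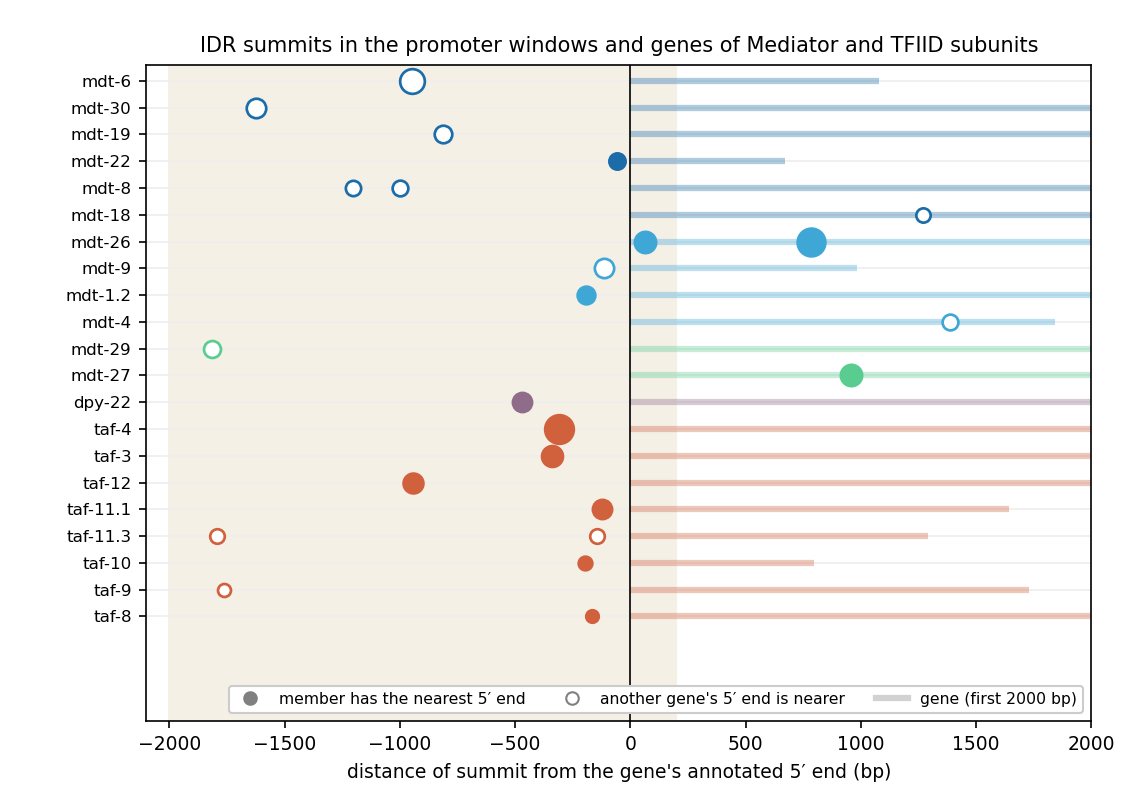
Distance in bp from the annotated 5′ end of the subunit gene to each IDR summit in its promoter window (shaded) or gene, for the 21 genes that had one. Point area follows pooled height, and an open point has the 5′ end of another gene nearer; 10 of the 20 promoter summits are open.

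In TFIID, promoter summits were at 8 of the 12 genes of histone-fold TAFs and at 0 of the 5 others. The modules were laid out with results of these data known and hold few genes, so no test was made of this contrast. taf-4 had the highest promoter peak of the whole set at 235.9, higher than 95.2% of IDR peaks. It stood at 114.1 in replicate 1 and 120.7 in replicate 2, with the summit 308 bp upstream of taf-4 and 616 bp upstream of the divergent gene pqn-59. taf-12, whose product pairs with TAF4 in yeast and human, had a peak of 113.0 (63.6 and 45.7) 944 bp upstream, in no other window. Both genes of this pair were therefore marked in both replicates.

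taf-3, taf-8 and taf-10 encode TAFs of which TAF3 and TAF8 each pair with TAF10 in yeast or human, and all 3 had a summit. taf-3 had one of 125.8 (46.4 and 76.3) 340 bp upstream and in no other window. taf-10 had one of 53.4 (29.2 and 23.7) 196 bp upstream. taf-8 had the weakest, 45.0 at rank 4706, just above the lower end of the list. It was 29.02 in replicate 1 and 18.7 in replicate 2, where its rank of 6166 left it outside the 5017 highest regions.

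The paralogues of TAF11 differed. taf-11.1 had a peak of 106.3 (48.0 and 57.5) 123 bp upstream and in no other window. taf-11.3 had 2, of heights 61.3 (30.6 and 30.03) 144 bp upstream and 61.1 (46.8 and 10.9) 1792 bp upstream. The first was nearer to urm-1, a ubiquitin-like modifier gene (86 bp), and the second to sly-1, a vesicle fusion gene (16 bp), and the second had rank 10581 in replicate 2. taf-11.2 had none, and its nearest IDR summit lay 4385 bp upstream at a height of 162.9. taf-13, whose product pairs with TAF11 in yeast and human, had none either, its strongest pooled region being 17.1.

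TAF6 and TAF9 form another pair in yeast and human. taf-9 had a peak of 48.4 (25.02 and 26.1) 1763 bp upstream, but only 21 bp upstream of hip-1 and 801 bp upstream of mlc-5, a myosin light chain gene. Neither taf-6.1 nor taf-6.2 had an IDR summit. taf-6.1 had a region of 16.1. taf-6.2 came nearest to the list among the subunit genes outside it, with a region of 35.9 at rank 5879, 109 bp upstream (18.4 and 19.1 in replicates 1 and 2). The highest pooled region outside the IDR list had a height of 42.2, and no member had a region between 35.9 and the 45.0 of taf-8. taf-1, taf-2, taf-5, taf-7.1 and taf-7.2, which encode the TAFs without a histone fold in this grouping, had no summit in window or gene. Their strongest pooled regions were 10.6 for taf-5 and 16.3 for taf-7.2, and taf-1, taf-2 and taf-7.1 had no pooled region in the window.

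All 24 distinct summits of the set, 20 in promoter windows and 4 in genes, were matched in both replicate lists by a summit at most 100 bp away. In the IDR list as a whole 93.4% were. Such matches are largely built in, because the IDR list was made from these lists, each of 30000 regions with background kept. Of the 24, 20 (83.3%) were among the 5017 highest regions of both replicates, beside 69.5% of all IDR peaks. The Spearman rank correlation of heights between replicates was lower, at 0.497 over the 24 summits beside 0.630 over 4688 matched IDR peaks. Over the 24 summits the median log2 ratio of replicate 1 to replicate 2 was 0.06 (SD 0.86), beside -0.11 (SD 0.73) over 4688 matched IDR peaks. 13 of the summits were higher in replicate 1 and 11 in replicate 2. The replicates were over 2-fold apart at 5 of the 24 (20.8%) and at 15.2% of matched IDR peaks. These 5 were mdt-4, mdt-29, the intronic mdt-26 site and mdt-22, all higher in replicate 2, and the distal taf-11.3 site, higher in replicate 1.

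**Figure D3:**
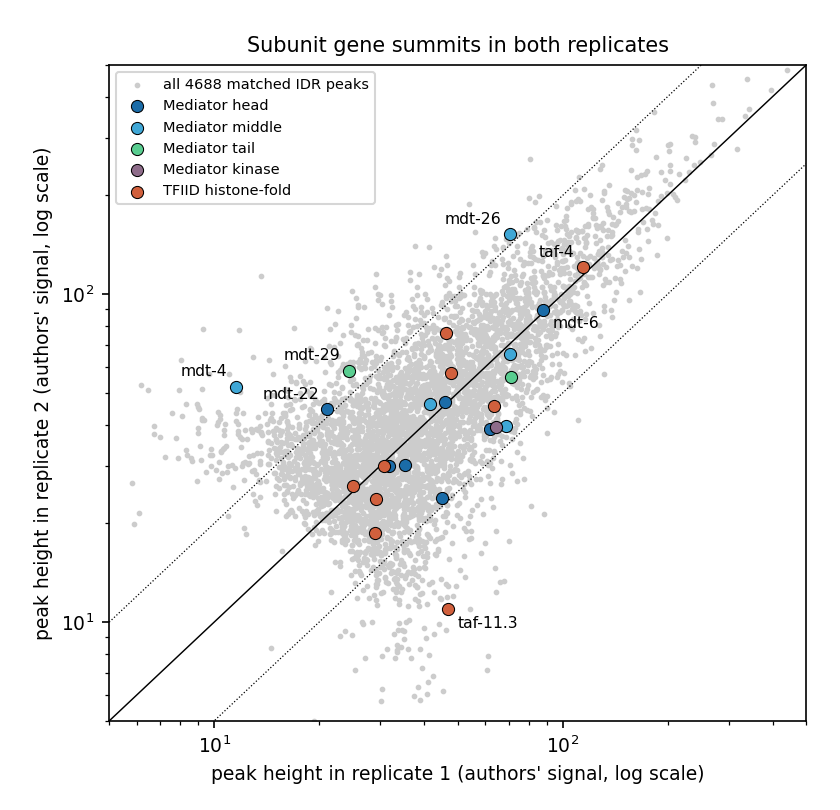
Height in replicate 1 against height in replicate 2 (both log scale, authors' signal) for 4688 matched IDR peaks in grey and the 24 summits of subunit genes in colour. The solid line marks equal heights and the dotted lines a 2-fold difference; mdt-4 and taf-11.3 lie farthest outside the dotted lines.

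Many of the promoter summits were shared with neighbours. Of the 20, 15 (75.0%) were also in the promoter window of at least 1 other gene, and for 10 (50%) another gene had the nearer 5′ end. Over all pairs of a gene and a promoter summit, 55.8% of summits were in a further window and the paired gene had the nearest 5′ end in 65.8%. The 5 summits in no other window were those of dpy-22, taf-3, taf-8, taf-11.1 and taf-12. No summit was shared between 2 subunit genes. When each summit was given only to its nearest 5′ end, 10 subunit genes kept one (24.4%) beside 12.5% of all genes. These were dpy-22, mdt-1.2, mdt-22, mdt-26, taf-3, taf-4, taf-8, taf-10, taf-11.1 and taf-12, so of the 8 genes that lost their summit 6 were Mediator genes and 2, taf-9 and taf-11.3, were TFIID genes.

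The arrangement of upstream neighbours is one feature that differed among the subunit genes. The nearest upstream gene was on the same strand for 24 of the 41, divergent for 11 and overlapping the 5′ end for 6, and promoter summits were at 10, 5 and 3 of these (41.7%, 45.5% and 50%). Among all genes the shares were 13.9%, 24.1% and 16.8%. Of the 14 subunit genes with a same-strand neighbour under 500 bp upstream, an arrangement that includes operons, 4 had a summit (28.6%), and of the 10 with a longer gap 6 did (60.0%). All genes gave 15.9% and 12.9%. The gap to the upstream gene had a median of 578 bp for the 18 genes with a promoter summit and 201 bp for the 23 without. By chromosome, 4 of the 5 genes on X had a summit (80.0%, beside 19.9% of all X genes), and the exception was taf-7.1. On III 6 of 11 did (54.5%, beside 24.5%), on II 4 of 9 (44.4%, beside 17.6%), on V 2 of 5 (40%, beside 12.9%) and on IV 1 of 4 (25%, beside 16.3%). Chromosome I went the other way, with a summit at 1 of 7 subunit genes, taf-4 (14.3%), beside 24.3% of all genes there. These counts are small and were not tested.

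**Figure D4:**
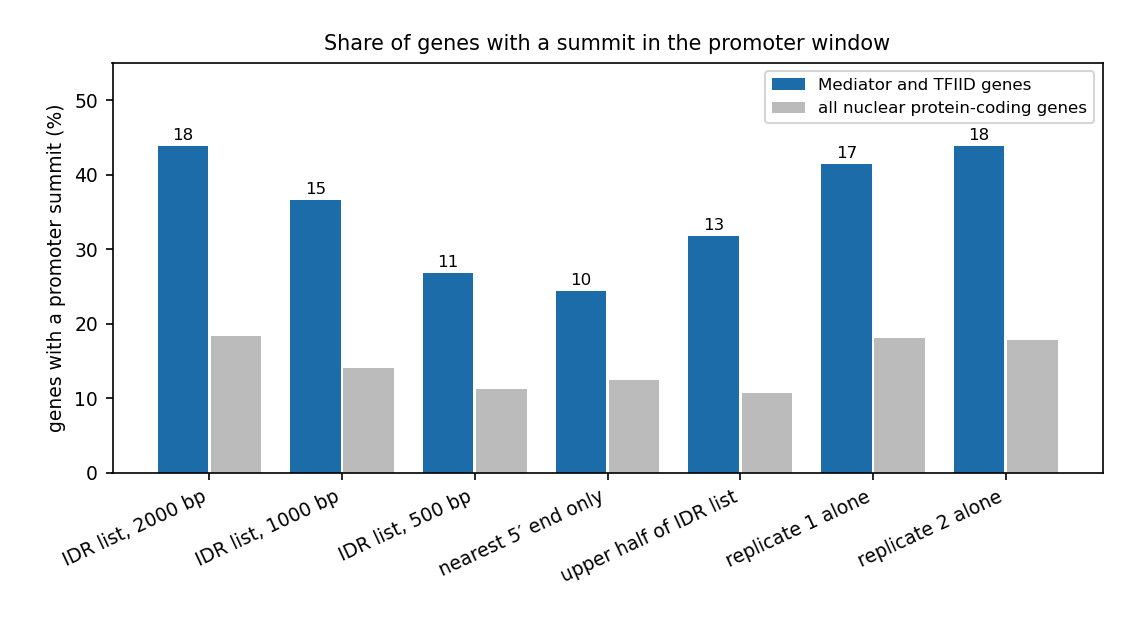
Share of genes with a summit in the promoter window, for the 41 subunit genes (blue, their number above the bar) and all 19973 nuclear protein-coding genes (grey), by peak list and window. The blue bars run between 24.4% and 43.9% and each stands above its grey bar, which run between 10.6% and 18.4%.

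Other genes of the transcription machinery carried promoter summits to differing extents, beside 18.4% of all genes. Of 5 Mediator genes under other names, sop-3 (height 84.2), sur-2 (64.9) and lin-25 (53.9) had one, at 175, 133 and 105 bp upstream, and let-49 and rgr-1 did not. sur-2 and lin-25 are known for vulval induction. Of 12 RNA polymerase II subunit genes 7 did (58.3%). The highest were at rpb-11 (143.5), rpb-3 (138.1) and ama-1, which encodes the largest subunit (89.9, 537 bp upstream). Lower ones were at rpb-7 (64.3), rpb-12 (52.2), rpb-6 (46.5) and rpb-8 (45.8). Of 16 genes of general factors 2 did (12.5%), cdk-7 (181.6) and gtf-2E2 (46.8). All of the RNA polymerase II summits except that of ama-1 also lay in the promoter window of another gene. So did those of lin-25 and cdk-7, but not those of sop-3, sur-2 and gtf-2E2. Neither tbp-1 nor tlf-1, the TBP family genes, had a summit, nor did cdk-9, cit-1.1 or cit-1.2 of the elongation kinase P-TEFb. Among factors known or possible as Mediator partners, nhr-25 had a promoter peak of 463.5, 157 bp upstream, and nhr-49 one of 159.3, 338 bp upstream, and elt-2 and sbp-1 had none. The first is the gene of the mapped factor itself, and the wgIs33 insertion expresses a tagged copy of it. Whether the insertion raised the height at this locus was not tested.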

How the data were processed

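The authors deposited narrowPeak lists on ce11 per replicate, for both replicates pooled, and after the IDR step. The deposited index text says that regions were called against a control alignment, with background regions kept, and that the IDR list came from the pooled and replicate lists. No aligner, caller or IDR threshold is given in the sources used here. Heights are the authors' signal values, whose scale is unstated and could depend on depth. The deposited −log10 q-values reached their ceiling at 71.8% of IDR peaks, so signal set the ranks. Deposited ce10 lists were not used here.

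Summits were placed on WBcel235 (ce11) genes of Ensembl release 115. All 41 members had ATG at their first coding base in the genome sequence used. Replicate heights are those of the nearest summit within 100 bp of the pooled one. For single replicates the 5017 highest regions of each stood in for the IDR list. The samples were treated as separate because they are labelled as biological replicates. No regions had identical coordinates between replicates (0), which cannot by itself show that the libraries are independent. Window assignment was checked on planted summits. Python 3.11.15, numpy 2.4.6 and scipy 1.17.1 were used.

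Every member was named, with values for those that had a summit. Members, modules and lists were chosen with earlier results of these data known, so shares and motifs were described beside all genes without tests. Random positions were not drawn. Annotated 5′ ends were used, although many worm transcripts are trans-spliced. The motifs were searched on both strands. No summit was assigned to a single target, since the windows of neighbouring genes overlap. Sequences are printed for 4 summit windows, and those of the other windows are not reported here.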

Additional observations from a re-analysis of the deposited data

How the results depend on the processing

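The number of subunit genes with a promoter summit depended on how far and how exclusively summits were assigned. It was 18 as reported, 11 with a window of 500 bp upstream (26.8%, beside 11.25% of all genes) and 10 with each summit given to the nearest 5′ end, settings that can only remove genes. The window of 500 bp lost mdt-6, mdt-8, mdt-19, mdt-29, mdt-30, taf-9 and taf-12. Without replicate 1 or replicate 2 it was 17 to 18: taf-8 was lost and let-19 gained on replicate 2 alone, and mdt-22 was lost on replicate 1 alone. With 10034 pooled regions it was 23 (56.1%), and cdk-8, cic-1, let-19, mdt-15 and taf-6.2 were added. The share of all genes also rose with that longer list, to 28.3%. With the 5′ ends of all transcripts it was 19, through mdt-18 (46.3%, beside 19.7% of all genes).

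Distinct promoter summits numbered 13 in the 2508 strongest IDR peaks and 11 with 500 bp. The median height of promoter summits was 105.5 with windows of 1000 and of 500 bp, and 61.3 for TFIID genes alone. The cause was not tested, and the medians over all genes with these shorter windows are not given here. Summits shared with another gene's window numbered 7 of 15 with 1000 bp and 3 of 11 with 500 bp. The half-site core was at 0 summits within 50 bp. Of 37 alternatives, 27 left the count within 1.5 times, or the value within a set spread. For heights that spread came from the replicate medians (5.85). For the log2 ratio it was the SD over the 20 summits (0.74), a wide limit for a median. Unknown depth limits what can be said of genes without a summit: regions under the list, such as those of taf-6.2 and the kinase module, were not shown to be unbound.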
